A study of Homo sapiens with 54 samples.

Results

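The levels of 10 genes of the Hippo-YAP pathway were followed in H9 hMSN-like cells, which are cultures of striatal-type neurons differentiated from the WA09 (H9) human embryonic stem cell line. The genes were chosen by symbol among the 60676 genes listed for every library, and each symbol matched a single listed gene. They are the secreted matricellular genes CCN1 and CCN2, the cofactor gene ANKRD1, the kinase genes NUAK2 and LATS2, the angiomotin family genes AMOT, AMOTL1 and AMOTL2, and the coactivator genes YAP1 and WWTR1, the latter coding for TAZ. RNA-seq was available for 53 libraries of 18 groups in 4 experiments. In the dopamine experiments, cultures received 1 mM or 1 µM dopamine for 1 h, either a single time (Acute) or daily over 5 days (Chronic), and RNA was taken 1 h or 24 h later, with PBS libraries of their own at each dose. In the time course, 1 mM dopamine was given daily for 2, 3, 4 or 5 days (2 Day to 5 Day) and compared with an ascorbic acid vehicle (AA vehicle). RNA of these dosed cultures was taken 1 h after the last dose. In the agonist experiment, SKF82958, an agonist of D1-like dopamine receptors, and Quinpirole, an agonist of D2-like receptors, were given at 50 µM and compared with Water. The labels name no time for the agonists, and the study's methods give a 1 h incubation for Quinpirole. Every group held 3 libraries except 5 Day with 2, and all cultures came from a single cell line. According to the study's methods the dopamine was dissolved in ascorbic acid, so that in the dopamine experiments the effect of dopamine and of this solvent against PBS cannot be told apart. Acute and Chronic cultures were also harvested at different culture ages, and the labels name no PBS group for each age.

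In the Hippo pathway, a kinase cascade that ends in LATS1 and LATS2 phosphorylates the coactivators YAP and TAZ and keeps them in the cytoplasm. When the cascade is quiet, YAP and TAZ enter the nucleus, bind TEAD transcription factors and switch on target genes, of which CCN1, CCN2 and ANKRD1 are the most widely used readouts. LATS2, AMOTL2 and NUAK2 are themselves targets of YAP and feed back on the pathway, and the angiomotins hold YAP at junctions and the actin cytoskeleton. The pathway is known for reading cell shape, adhesion and signals from G-protein-coupled receptors, the receptor class that binds dopamine.

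In 52 libraries, between 5755919 and 27702963 reads fell on exons, with 13707122 to 21514125 in the 1 mM experiment and 5755919 to 27702963 in the 1 µM experiment. The remaining library, Quinpirole replicate 1, held 137051 exon reads among 4121674 gene reads, so that 96.67% of its gene reads lay in introns, against 12.26% to 31.19% elsewhere. In this library CCN1, CCN2 and AMOTL2 had 0 exon reads, a count that allows up to 3 reads in such a library. The results for the agonists are therefore given with and without it. Replicate 1 of 1 mM Acute 24 h had the highest levels in its group of every member except WWTR1 and ANKRD1. It weighed on the spread of the whole experiment. The library 1 µM PBS replicate 2 had exon reads in 16085 genes against 18716 to 21554 in the other 14 libraries of its experiment. Intron shares were lower in 1 mM Acute 1 h (12.26% to 13.21%) and 1 mM Acute 24 h (12.49% to 15.86%) than in 1 mM PBS (19.53% to 21.81%), and for that reason exon reads were tested. In 1 mM Chronic 1 h (20.58% to 20.89%) and 1 mM Chronic 24 h (18.87% to 22.42%) they lay near those of PBS. The Acute groups thus differed in this share from both PBS and the Chronic groups, and its part in the members' values was not tested. Of the striatal projection neuron markers, BCL11B reached a median of 44.6 TPM over these 52 libraries and PPP1R1B, which codes for DARPP-32, 14.4 TPM, whereas DRD1 had a median of 1.63 TPM and DRD2 of 3.69 TPM. TPM corrects exon reads for exon length and for depth, so that levels of different genes can be compared. Markers of progenitors, astrocytes and mesenchymal cells were present too, so the libraries came from mixed cultures, in which fewer cells of a type and less RNA per cell cannot be told apart.

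The DNA just upstream of annotated starts of the genes is shown because TEAD factors recognise the short motif GGAATG, which can be read directly in these windows, on the opposite strand as CATTCC. RefSeq starts in GRCh38.p14 were at hand for 9 of the 10 genes, namely all but CCN1, and the 250 bases upstream of each of 11 starts were searched on both strands for this TEAD motif, for the AP-1 motif TGANTCA, for the cAMP response element TGACGTCA and for the CArG box of SRF. Of all 35116 such windows, 11.9% held the TEAD motif, 6.57% the AP-1 motif, 1.65% the cAMP response element and 1.16% the CArG box. The CCN2 window held 3 TEAD motifs, the ANKRD1 and NUAK2 windows 2 each, and the windows of YAP1 and of 1 of the 2 AMOTL2 starts 1 each. The other match among the members was an AP-1 motif in the ANKRD1 window, beginning 195 bases upstream of the start. The windows of AMOT, AMOTL1, LATS2, the other AMOTL2 start and both WWTR1 starts held none of these motifs, which says only that these letters are absent there. The windows of AMOTL1, of both WWTR1 starts and of the AMOTL2 start printed below lie inside the listed spans of these genes. The 4 windows below are printed 5′ to 3′ on the strand of the gene, which is the minus strand in each case, with the matches in capitals.
CCN2 (chr6:131951373-131951622): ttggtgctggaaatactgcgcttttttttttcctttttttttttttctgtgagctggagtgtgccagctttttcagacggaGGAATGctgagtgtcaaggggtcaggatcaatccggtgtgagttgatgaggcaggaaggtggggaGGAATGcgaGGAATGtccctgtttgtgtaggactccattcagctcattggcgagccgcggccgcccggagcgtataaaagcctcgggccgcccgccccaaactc
ANKRD1 (chr10:90921088-90921337): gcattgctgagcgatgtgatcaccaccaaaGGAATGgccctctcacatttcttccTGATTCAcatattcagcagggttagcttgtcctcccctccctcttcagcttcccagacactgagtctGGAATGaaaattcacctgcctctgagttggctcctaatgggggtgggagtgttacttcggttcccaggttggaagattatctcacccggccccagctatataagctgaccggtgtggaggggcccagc
NUAK2 (chr1:205321746-205321995): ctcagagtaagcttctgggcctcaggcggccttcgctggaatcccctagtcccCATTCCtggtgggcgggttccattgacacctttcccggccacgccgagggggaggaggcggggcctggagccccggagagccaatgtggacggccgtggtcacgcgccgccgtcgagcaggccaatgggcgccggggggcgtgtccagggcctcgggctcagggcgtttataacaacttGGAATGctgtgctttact
AMOTL2 (chr3:134374448-134374697): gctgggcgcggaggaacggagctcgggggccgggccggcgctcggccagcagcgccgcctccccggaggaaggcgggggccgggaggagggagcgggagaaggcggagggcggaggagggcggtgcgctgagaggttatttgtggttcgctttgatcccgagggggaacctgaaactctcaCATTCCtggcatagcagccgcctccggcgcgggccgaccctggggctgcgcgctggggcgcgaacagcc
The TEAD motifs began 169, 104 and 95 bases upstream of the start in CCN2, 220 and 128 bases upstream in ANKRD1, 197 and 18 bases upstream in NUAK2 and 69 bases upstream in AMOTL2.

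The 10 genes were expressed at very different levels. Over the 52 libraries other than Quinpirole replicate 1, YAP1 had a median of 57.8 TPM (range 32.5 to 130) and AMOTL2 of 59.0 TPM (27.3 to 129), AMOT of 43.9 TPM (27.5 to 69.9) and AMOTL1 of 41.8 TPM (30.7 to 83.3). NUAK2 followed with 30.2 TPM (12.1 to 79.2), LATS2 with 14.2 TPM (6.39 to 46.1) and WWTR1 with 11.8 TPM (6.48 to 19.8). CCN1 and CCN2 had the widest spans, from 5.82 to 362 TPM with a median of 34.8 TPM for CCN1 and from 3.73 to 616 TPM with a median of 40.3 TPM for CCN2. ANKRD1 was the least abundant, with a median of 0.78 TPM and a maximum of 10.9 TPM, and rested on 570 exon reads in all libraries together. The ranges of YAP1, AMOTL2, AMOT and AMOTL1 overlapped broadly, so their order is not firm. At least 94.46% of the exon reads of every member were uniquely mapped.

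**Figure D1:**
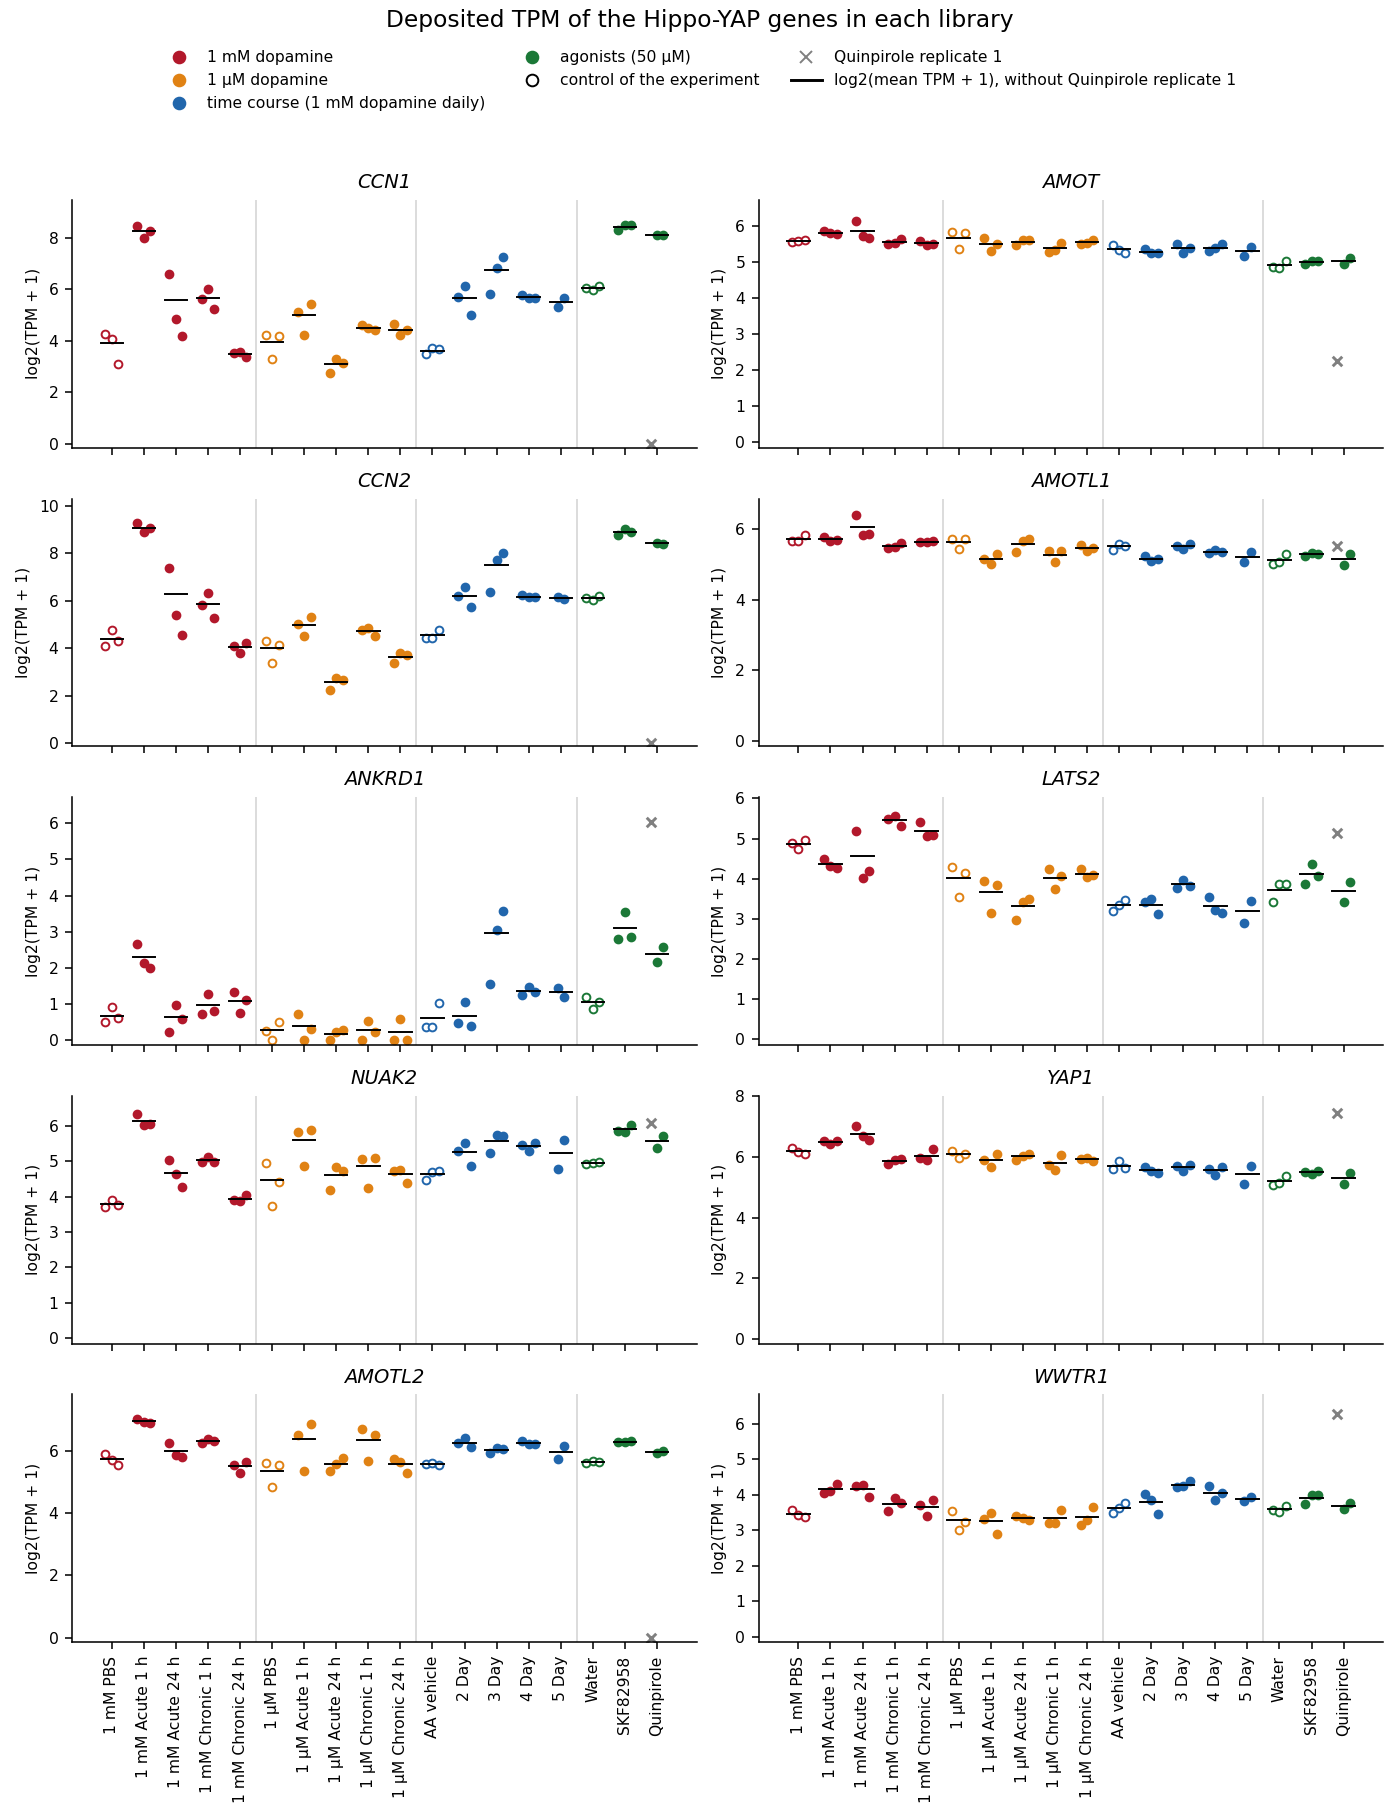
Deposited TPM of the 10 genes as log2(TPM + 1) in each of 53 libraries, by group on the horizontal axis. Each point is a library, open points are control libraries, lines mark the mean TPM of a group without Quinpirole replicate 1, which is the grey cross, and colours mark the experiment. CCN1 and CCN2 stood highest in 1 mM Acute 1 h, SKF82958 and the other Quinpirole libraries, while AMOT (27.5 to 69.9 TPM) and AMOTL1 (30.7 to 83.3 TPM) varied little.

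The comparison of 1 mM Acute 1 h with PBS asked which genes answered a single exposure to dopamine. CCN1 was 22.9-fold and CCN2 28.2-fold higher, ANKRD1 was 6.71-fold and NUAK2 5.69-fold higher, and AMOTL2 was 2.45-fold higher. WWTR1, YAP1 and AMOT were also higher, by 1.76-fold or less. Of the 10 members 8 passed edgeR's quasi-likelihood test at an adjusted p under 0.05, all of them higher, where 16% of the 17804 genes tested passed and 8.04% passed higher. The median log2(fold change) of the members was 1.05 and that of all genes tested 0.01.

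CCN1 (chr1:85580761-85583950, plus strand) codes for a secreted protein that binds integrins and is a rapid target of YAP. Its level was 18.3, 16.01 and 7.55 TPM in the PBS libraries and 354, 253 and 307 TPM in 1 mM Acute 1 h. CCN2 (chr6:131948176-131951372, minus strand), its paralog with roles in matrix production, was at 15.9, 26.0 and 18.7 TPM in PBS and at 616, 483 and 535 TPM in 1 mM Acute 1 h. In both genes each dosed library was far above every PBS library, and the libraries of a group differed much less than the groups. The log2(fold change) of exon reads was 4.52 ± 0.51 (SE, adjusted p = 0.000181) for CCN1 and 4.82 ± 0.56 (adjusted p = 0.000213) for CCN2 by edgeR.

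ANKRD1 (chr10:90912096-90921276, minus strand), a nuclear ankyrin repeat protein first studied in the heart, was low in both groups. It rose from 0.40, 0.86 and 0.50 TPM in PBS to 5.25, 3.36 and 2.99 TPM, counted on 41, 22 and 21 exon reads. NUAK2 (chr1:205302063-205321760, minus strand), an AMPK-related kinase that inhibits LATS, rose from 12.1, 13.8 and 12.4 TPM to 79.2, 64.0 and 65.5 TPM. Neither gene had overlapping groups. Their log2(fold change) values were 2.75 ± 0.50 (adjusted p = 0.00351) for ANKRD1 and 2.51 ± 0.15 (adjusted p = 2.03e-06) for NUAK2, and NUAK2 had the smallest adjusted p of the members by edgeR.

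Among the angiomotins, AMOTL2 (chr3:134355874-134375479, minus strand), itself a YAP target, rose from 58.7, 51.6 and 46.0 TPM in PBS to 129, 120 and 117 TPM, a log2(fold change) of 1.29 ± 0.11 (edgeR, adjusted p = 2.43e-05). AMOT, on chromosome X, was at 45.8, 46.8 and 47.8 TPM in PBS and at 56.8, 55.3 and 53.9 TPM in 1 mM Acute 1 h. AMOTL1 was at 49.3, 49.1 and 55.6 TPM and at 53.5, 49.6 and 49.9 TPM. AMOTL2 thus stood apart in both size and separation, AMOT showed a small shift without overlap, with a log2(fold change) of 0.30 ± 0.08 (edgeR, adjusted p = 0.0213), and the AMOTL1 groups overlapped (0.05 ± 0.10, adjusted p = 0.755). The call for AMOT was lost when any 1 of the 6 libraries was left out.

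The coactivator genes moved less. WWTR1 was at 10.9, 9.79 and 9.37 TPM in PBS and at 15.8, 16.1 and 18.6 TPM in 1 mM Acute 1 h, with a log2(fold change) of 0.81 ± 0.15 (edgeR, adjusted p = 0.00353). YAP1 was at 78.5, 70.7 and 68.3 TPM and at 91.5, 85.7 and 92.2 TPM, with a log2(fold change) of 0.37 ± 0.10 (adjusted p = 0.0241) that passed in only 1 of 6 fits with a library left out. LATS2, the kinase that restrains both coactivators, was at 28.4, 25.8 and 30.3 TPM in PBS and at 21.3, 18.9 and 18.2 TPM in 1 mM Acute 1 h. Here the dosed libraries lay below every PBS library, but the log2(fold change) of -0.47 ± 0.21 did not pass (adjusted p = 0.143). It passed with nearly the same value, -0.48 ± 0.11 (adjusted p = 0.00253), in the fit without 1 mM Acute 24 h replicate 1, where 39.8% of genes passed.

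Reads on introns, which mostly come from unspliced transcripts, gave a second readout of the same libraries. CCN1 had 1, 8 and 3 intron reads in the PBS libraries and 53, 28 and 37 in 1 mM Acute 1 h, and AMOTL2 had on average 97.3 intron reads in PBS and 229 in 1 mM Acute 1 h. Both genes thus had more intron reads after dopamine in absolute numbers, although all introns together held fewer reads in these libraries. By intron reads 7 of the 10 members passed, all higher, with log2(fold change) values of 4.57 ± 0.62 for CCN1, 4.40 ± 0.57 for CCN2, 2.55 ± 0.21 for AMOTL2, 2.37 ± 0.64 for ANKRD1, 2.12 ± 0.25 for NUAK2, 0.77 ± 0.17 for AMOTL1 and 0.50 ± 0.14 for YAP1. These values are relative to all intron reads, and 45.2% of genes passed by intron reads, so that for AMOTL1 and YAP1 the value was positive while the mean intron reads went from 269 to 183 and from 411 to 234.

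Other genes of the pathway were described by lists. Of 24 genes of the Hippo kinase cascade and its upstream regulators, 5 passed higher and 2 lower in 1 mM Acute 1 h, with a median log2(fold change) of 0.04, where 16% of all genes passed. The smallest adjusted p values belonged to SCRIB (0.47), a polarity scaffold, AJUBA (0.98), which inhibits LATS, and PTPN14 (0.63), which retains YAP in the cytoplasm. Among TEAD factors and VGLL cofactors, 1 of 6 tested genes passed, the cofactor VGLL3 (1.12), and CCN3, a CCN family gene outside the members, was lower (-0.69). Of 15 other YAP and TAZ target genes 3 passed, all higher (FJX1 0.61, GADD45A 1.29, AXL 0.38), and the median of the list was 0.30. The shares of the TEAD and VGLL list and of the list of other targets thus lay near that of all genes. Genes that answer to SRF and MRTF, the actin-sensing pathway that shares targets with YAP, passed in 12 of 15 cases, all higher, with a median of 1.12 and with TAGLN (3.37), ACTA2 (3.05) and SRF (1.26) in front. Immediate early genes passed in 11 of 12 cases with a median of 3.18. The summed TPM of 5 astrocyte markers was 344 to 399 in these libraries against 169 to 180 in PBS, while that of 6 neuron markers was 2858 to 3160 against 3137 to 3571. Of the neuron markers, SYT1 (-0.428) and RBFOX3 (-0.401) passed, both lower. The sum of 11 striatal projection neuron markers was 121.5 to 126.4 against 137.9 to 156.7, with ARPP21 lower (-0.645) and GAD2 higher (0.663). The progenitor marker SLC1A3 (-0.484) and the mesenchymal marker DCN (-1.017) were lower too. Of the astrocyte markers only the gap junction gene GJA1 passed (1.30 ± 0.28, edgeR, adjusted p = 0.00797), GFAP was at -0.74 ± 0.25 (adjusted p = 0.0573), and the median of the 5 was -0.19. The part of these shifts in the members' values was not tested.

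At 1 mM Acute 24 h, 5 of 10 members passed, all higher, where 15.5% of genes did and 8.38% passed higher. CCN1 was at 96.9, 27.8 and 17.5 TPM and CCN2 at 167, 41.4 and 22.8 TPM, so that replicate 1 carried most of the rise and replicate 3 lay within the PBS range. The log2(fold change) was 1.56 ± 0.47 (edgeR, adjusted p = 0.0416) for CCN1 and 1.72 ± 0.51 (adjusted p = 0.0391) for CCN2. Without replicate 1 these were 0.65 ± 0.30 (adjusted p = 0.13) and 0.61 ± 0.29 (adjusted p = 0.141), neither of which passed. NUAK2 (31.5, 23.8 and 18.4 TPM), WWTR1 (18.1, 18.5 and 14.3 TPM) and YAP1 (130, 101.9 and 93.8 TPM) stayed above every PBS library. They passed with replicate 1, at 0.80 ± 0.14, 0.64 ± 0.15 and 0.45 ± 0.10, and without it, at 0.67 ± 0.13, 0.66 ± 0.15 and 0.38 ± 0.09, where 22.3% of genes passed. LATS2 was at 35.3, 15.2 and 17.2 TPM, so that replicate 1 lay above and the others below every PBS library. It did not pass with replicate 1 (-0.48 ± 0.20, adjusted p = 0.117) and was lower without it (-0.85 ± 0.12, edgeR, adjusted p = 0.000423). The neuron marker sum was 1634 to 2904 in this group, below every PBS library. In the fit with all libraries, the neuron markers SYT1 (-0.419), RBFOX3 (-0.488) and STMN2 (-0.684) were lower. Of the other cell type markers, PPP1R1B (-0.912), AQP4 (-1.050) and DCN (-1.698) were lower and GAD2 (0.753) higher. The part of these markers in the members' values was not tested.

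**Figure D2:**
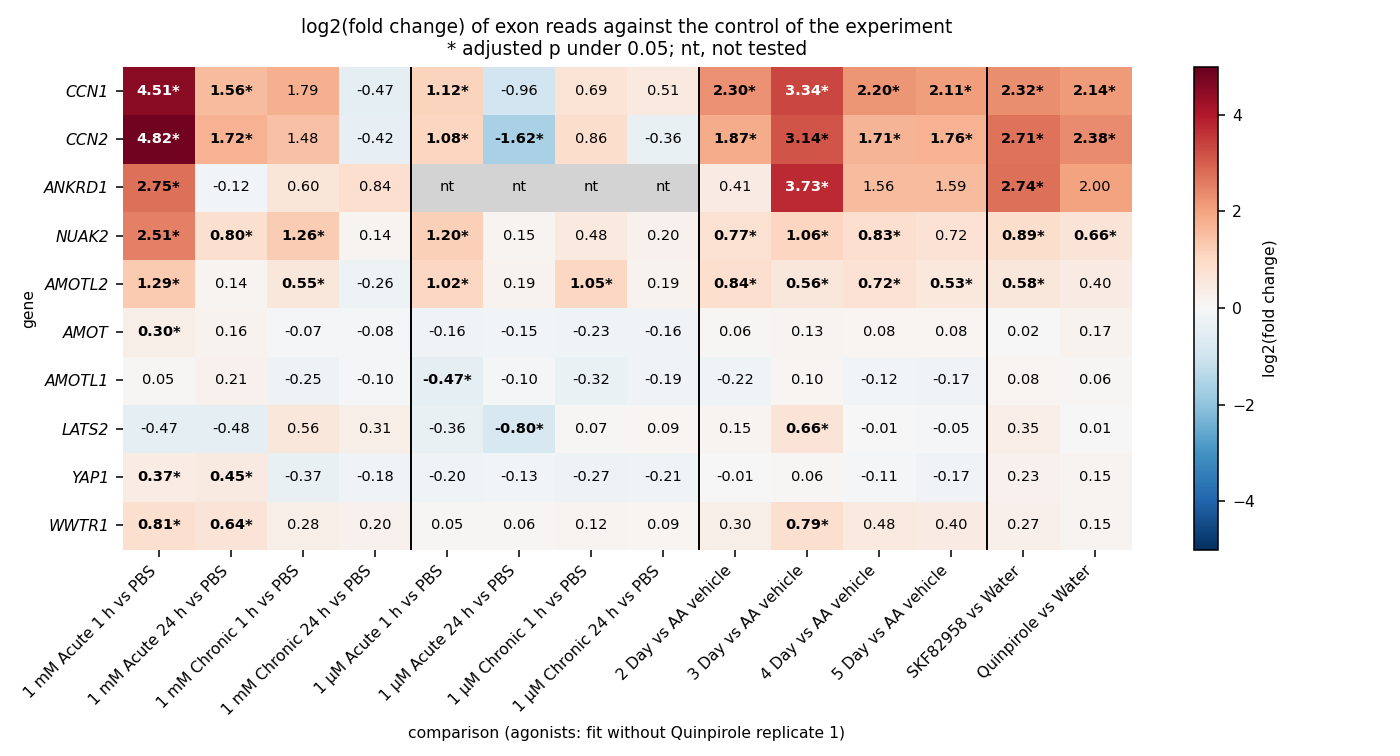
Heat map of log2(fold change) of exon reads for the 10 genes (rows) in 14 comparisons with the control of each experiment (columns). Asterisks mark an adjusted p under 0.05 and grey cells were not tested. CCN1 and CCN2 were highest at 1 mM Acute 1 h (4.52 and 4.82) and at 3 Day (3.34 and 3.14), and AMOT and AMOTL1 stayed between -0.47 and 0.30 throughout.

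Repeated dosing gave smaller values. In 1 mM Chronic 1 h, CCN1 was at 48.1, 64.3 and 36.2 TPM and CCN2 at 55.8, 80.3 and 38.2 TPM, above every PBS library and below every 1 mM Acute 1 h library. Against PBS, NUAK2 (1.26 ± 0.14, adjusted p = 0.000725) and AMOTL2 (0.55 ± 0.11, adjusted p = 0.0188) passed edgeR's test, 2 of 10 members where 2.08% of genes passed. CCN1 (1.79 ± 0.47, adjusted p = 0.0693) and CCN2 (1.48 ± 0.51, adjusted p = 0.154) did not. In the fit without 1 mM Acute 24 h replicate 1, which is in neither group compared, 7 of 10 members passed where 18.4% of genes did. There CCN1 (1.79 ± 0.26), CCN2 (1.47 ± 0.26) and LATS2 (0.56 ± 0.10) were called higher, and YAP1 (-0.37 ± 0.08) and AMOTL1 (-0.25 ± 0.06) lower. The values themselves hardly moved between these fits, and the standard errors did. Among cell type markers in the fit with all libraries, PPP1R1B was lower (-0.929) and GFAP higher (1.611) than in PBS. The part of these markers was not tested.

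The direct comparison of 1 mM Chronic 1 h with Acute 1 h bore on desensitization, meaning a weaker response to a repeated dose. It compared levels, whereas the study took the ratio of the log2(fold change) values against PBS. The groups also differed in culture age and intron share, so the number of doses and culture age cannot be told apart. Here 9 of 10 members passed where 11.3% of genes did, and 8 were lower after repeated dosing where 5.91% of genes were. Without 1 mM Acute 24 h replicate 1 all 10 passed, where 34% of genes did. CCN2 was 10.1-fold lower, with a log2(fold change) of -3.34 ± 0.51 (edgeR, adjusted p = 0.00133). CCN1 was 6.63-fold lower (-2.73 ± 0.46, adjusted p = 0.00227), ANKRD1 4.42-fold (-2.14 ± 0.47), NUAK2 2.37-fold (-1.25 ± 0.14), and AMOTL2 and YAP1 each 1.67-fold lower. WWTR1 (-0.54 ± 0.15) and AMOT (-0.37 ± 0.08) were lower as well. LATS2 went the other way, from 21.3, 18.9 and 18.2 TPM to 43.7, 46.1 and 38.6 TPM, and was 2.04-fold higher with no overlap (1.03 ± 0.21, adjusted p = 0.00694). AMOTL1 did not pass (-0.30 ± 0.10, adjusted p = 0.0655). Relative to all intron reads 8 members were lower by that readout, where 32.9% of genes passed, among them CCN1 (-3.03 ± 0.54), CCN2 (-2.94 ± 0.50) and AMOTL2 (-1.95 ± 0.20). For AMOT, AMOTL1 and YAP1, also among the 8, the mean intron reads themselves went from 66.7 to 108, from 183 to 302 and from 234 to 320, and every Chronic library held more of them than any Acute library. SRF and MRTF targets were lower in 9 of 15 cases and immediate early genes in 5 of 12. The astrocyte marker sum was 210 to 233 TPM in 1 mM Chronic 1 h against 344 to 399 TPM in Acute 1 h, with GJA1 lower (-1.19) and GFAP higher (2.35) after repeated dosing. SLC1A3 (0.86), from the neural progenitor list, and ARPP21 (1.00), from the striatal neuron list, were higher, whereas HES1 (-0.62) and GAD2 (-0.65) of the same lists were lower. The part of these markers in the members' values was not tested.

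At 1 mM Chronic 24 h no member passed edgeR's test, where 0.663% of genes did, and 1 (AMOTL2, -0.26) had an unadjusted p under 0.05, while DESeq2 called none. CCN1 was at 10.5, 11.0 and 9.27 TPM and CCN2 at 15.98, 12.8 and 17.5 TPM, within or below the PBS range. NUAK2 was at 14.1, 13.7 and 15.5 TPM. The log2(fold change) of these 3 genes lay between -0.47 and 0.14, each with a standard error of 0.14 to 0.53. LATS2, at 41.8, 32.3 and 32.8 TPM, lay above every PBS library, of which the highest was at 30.3 TPM. Without 1 mM Acute 24 h replicate 1 in the fit it did not pass either (0.31 ± 0.10, edgeR, adjusted p = 0.0721).

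At the lower dose of 1 µM, fewer members passed. In 1 µM Acute 1 h, CCN1 was at 33.4, 17.8 and 42.6 TPM against 17.5, 8.72 and 17.3 TPM in PBS. CCN2 was at 31.6, 21.9 and 39.2 TPM against 18.8, 9.39 and 16.5 TPM. Replicate 2 was the lowest library in both groups, and the dosed libraries still lay above every PBS library in both genes. NUAK2 (55.5, 28.4 and 58.3 TPM against 30.1, 12.4 and 20.5 TPM) and AMOTL2 (90.1, 39.9 and 116 TPM against 47.6, 27.3 and 45.8 TPM) overlapped with PBS through replicate 2. Of 9 members tested 5 passed edgeR's test where 5.77% of 16541 genes did. NUAK2 (1.20 ± 0.23, adjusted p = 0.00662), CCN1 (1.12 ± 0.24, adjusted p = 0.0144), CCN2 (1.08 ± 0.24, adjusted p = 0.0165) and AMOTL2 (1.02 ± 0.23, adjusted p = 0.0199) were higher, and AMOTL1 was lower (-0.47 ± 0.11, adjusted p = 0.0204). Without 1 µM PBS replicate 2, only NUAK2 passed (1.03 ± 0.24, adjusted p = 0.0299), where 4.21% of genes did, and CCN1 was at 0.96 ± 0.26 with an adjusted p of 0.0511. ANKRD1 was too low to be tested, with at most 0.64 TPM in any 1 µM library. No SRF or MRTF target among 15 passed at this dose and time, whereas 8 of 12 immediate early genes passed higher and 1 lower. Of 13 other YAP and TAZ targets tested 3 passed, of which F3 was higher (1.22) and MYOF (-1.73) and CCDC80 (-1.05) were lower, with a median of -0.02. Among cell type markers, VIM (-1.01), POSTN (-2.36), COL1A1 (-1.03) and GAD1 (-1.29) were lower and HES1 (1.57), NES (0.66) and DNMT3B (0.77) higher, and no astrocyte or neuron marker passed. The mesenchymal sum was 32.1 to 61.4 TPM against 47.6 to 94.5 TPM in PBS, and the part of these markers was not tested.

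In 1 µM Acute 24 h, CCN2 was at 3.73, 5.59 and 5.28 TPM, below every PBS library, and 3.08-fold lower (-1.62 ± 0.26, edgeR, adjusted p = 0.00367). LATS2 was at 6.78, 9.76 and 10.3 TPM against 18.4, 10.7 and 16.7 TPM in PBS (-0.80 ± 0.17, adjusted p = 0.0212). These were 2 of 9 members, where 3.31% of genes passed. CCN1, at 5.82, 8.74 and 7.89 TPM, did not pass (-0.96 ± 0.25, adjusted p = 0.0509), and it did without 1 µM PBS replicate 2 (-1.12 ± 0.26, adjusted p = 0.0469), where 1.56% of genes passed. In 1 µM Chronic 1 h, AMOTL2 alone passed, at 103, 50.2 and 90.04 TPM (1.05 ± 0.23, adjusted p = 0.0285), where 2.58% of genes did. Without 1 µM PBS replicate 2 it did not (0.97 ± 0.27, adjusted p = 0.103), and 1.4% of genes passed. In 1 µM Chronic 24 h, edgeR and DESeq2 called 0 members, 0 members had an unadjusted p under 0.05, and edgeR called 0% of all genes. Between 1 µM Chronic 1 h and Acute 1 h, edgeR and DESeq2 called 0 of 9 members where edgeR called 1.2% of genes, and 2 (LATS2 and NUAK2) had an unadjusted p under 0.05.

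The difference between the doses was tested as an interaction, that is, the log2(fold change) against PBS at 1 mM minus that at 1 µM. After Acute 1 h, 5 of 10 members differed where 2.01% of 18390 genes did. The difference was 3.76 ± 0.57 (edgeR, adjusted p = 0.000621) for CCN2, 3.42 ± 0.54 (adjusted p = 0.000849) for CCN1 and 1.33 ± 0.28 (adjusted p = 0.0128) for NUAK2. It was 0.60 ± 0.15 (adjusted p = 0.0372) for YAP1 and 0.54 ± 0.14 (adjusted p = 0.0409) for AMOTL1. The last pair did not pass without 1 µM PBS replicate 2 (adjusted p of 0.0873 and 0.0822, with 1.61% of genes passing). AMOTL2 differed by 0.29 ± 0.28 (adjusted p = 0.69). After Chronic 1 h, edgeR and DESeq2 called 0 members where edgeR called 0.087% of genes, and 1 (NUAK2, 0.77 ± 0.28) had an unadjusted p under 0.05. Dose and experiment cannot be told apart here, and the 1 mM cultures had higher sums of neuron markers in PBS (3137 to 3571 against 1885 to 2342) and of astrocyte markers (169 to 180 against 67.3 to 81.9).

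**Figure D3:**
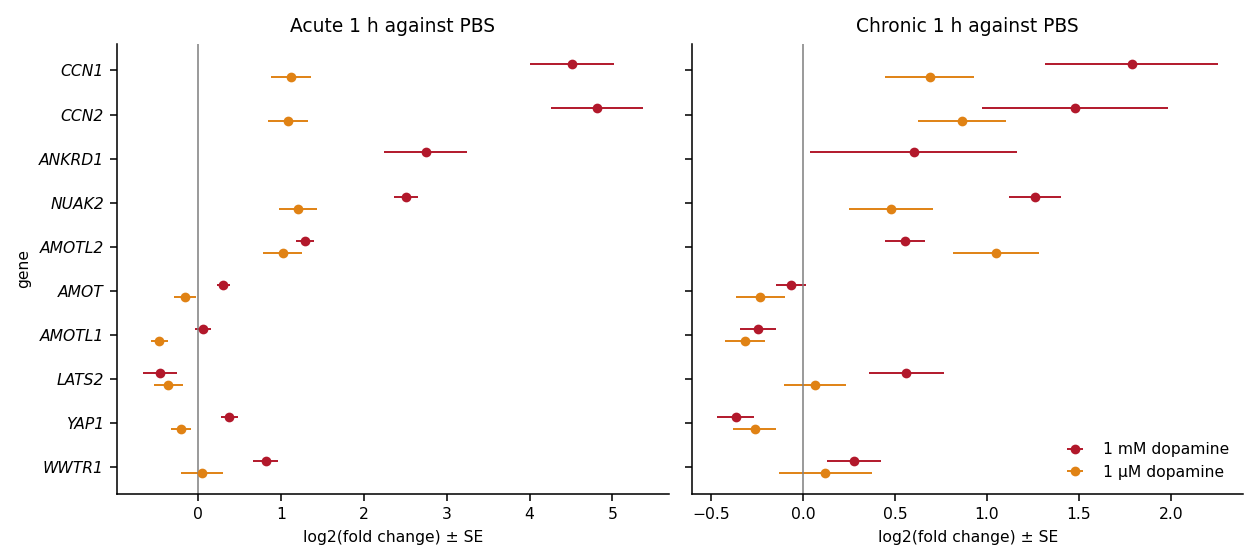
log2(fold change) of exon reads against PBS for each gene at 1 mM (red) and 1 µM (orange), 1 h after a single dose (left) and after 5 daily doses (right). Points are estimates from 3 libraries per group and bars are standard errors. CCN1 and CCN2 differed most between the doses after Acute 1 h (3.42 and 3.76), and AMOTL2 lay closer (0.29).

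In the time course, CCN1, CCN2 and AMOTL2 were higher than the AA vehicle on every day measured. CCN1 was at 10.1, 12.1 and 11.8 TPM in the AA vehicle and at 50.9, 68.3 and 31.3 TPM at 2 Day, 55.2, 114 and 151 TPM at 3 Day, 53.4, 50.3 and 49.8 TPM at 4 Day, and 39.3 and 50.2 TPM at 5 Day. CCN2 was at 20.4, 20.3 and 26.1 TPM in the vehicle, and at 73.0, 96.2 and 51.7 TPM, 82.3, 208 and 260 TPM, 74.7, 69.8 and 70.2 TPM, and 69.8 and 66.6 TPM on the same days. No dosed library of either gene reached down to the vehicle libraries. The 3 Day libraries spread widely, with replicate 1 near the other days and replicates 2 and 3 above them.

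At 2 Day, 4 of 10 members passed edgeR's test where 3.88% of 16768 genes did, namely CCN1 (2.30 ± 0.34, adjusted p = 0.00186), CCN2 (1.87 ± 0.35), AMOTL2 (0.84 ± 0.08) and NUAK2 (0.77 ± 0.18). At 3 Day, 7 passed where 7.37% of genes did. CCN1 was 10.1-fold higher (3.34 ± 0.33, adjusted p = 3.48e-05) and CCN2 8.84-fold (3.14 ± 0.34, adjusted p = 8.65e-05). ANKRD1 rose from 0.28, 0.28 and 1.02 TPM in the vehicle to 1.94, 7.26 and 10.9 TPM (3.73 ± 0.65, adjusted p = 0.00318). WWTR1 rose from 10.3, 11.4 and 12.8 TPM to 17.7, 18.1 and 19.8 TPM (0.79 ± 0.14, adjusted p = 0.00453), and LATS2 from 8.22, 9.16 and 9.99 TPM to 12.6, 14.7 and 13.1 TPM (0.66 ± 0.14, adjusted p = 0.0111). None of these 5 genes overlapped with the vehicle. NUAK2 (1.058 ± 0.178) and AMOTL2 (0.56 ± 0.08) completed the 7. By intron reads AMOTL2 (2.07 ± 0.30), CCN2 (2.52 ± 0.56) and NUAK2 (1.29 ± 0.24) passed, where 2.53% of genes did.

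At 4 Day, CCN1 (2.20 ± 0.34), CCN2 (1.71 ± 0.35), NUAK2 (0.83 ± 0.18) and AMOTL2 (0.72 ± 0.08) passed, where 4.38% of genes did. At 5 Day, CCN1 (2.11 ± 0.37), CCN2 (1.76 ± 0.38) and AMOTL2 (0.53 ± 0.09) passed, where 1.63% of genes did. NUAK2 at 5 Day had libraries of 26.6 and 47.0 TPM and did not pass (0.72 ± 0.20, adjusted p = 0.0883). Without AA vehicle replicate 1, edgeR called 0 members at 5 Day. The slope over 2 to 5 daily doses passed for 0 of 10 members by edgeR and by DESeq2, with 2 members (AMOTL2 and LATS2) at an unadjusted p under 0.05, and edgeR called 0.0119% of genes. It was -0.17 ± 0.11 log2 units per further dose for CCN1 and -0.18 ± 0.11 for CCN2. A difference between 3 Day and the other days was not tested by itself.

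The lists around the members moved with the days too. SRF and MRTF targets passed in 13 of 15 cases at 3 Day, all higher (median 0.85, with ACTA2 at 2.43, MYH9 at 1.03 and TPM1 at 1.31), and in 0 of 15 at 2 Day, 4 Day and 5 Day. Other YAP and TAZ targets passed in 6 of 15 cases at 3 Day, among them IGFBP3 (1.95), CCDC80 (1.09) and GADD45A (0.77), and in 1, 4 and 2 of 15 at 2 Day, 4 Day and 5 Day, all higher. GADD45A, a growth arrest gene, passed on each of the 4 days. Of the Hippo cascade list, LATS1 was lower at 2 Day (-0.40), and WWC1 (0.38), PTPN14 (0.51) and FRMD6 (0.48) were higher at 3 Day. Immediate early genes passed in 11 or 12 of 12 cases on each day. The sum of 8 mesenchymal markers was 237 to 475 TPM in the dosed libraries and 188 to 247 TPM in the vehicle, and that of the astrocyte markers 194 to 294 TPM and 162 to 209 TPM. COL3A1 (0.615 to 0.799) and COL1A2 (0.581 to 0.756) passed higher on each day, and COL1A1 (1.946) at 3 Day. Of the astrocyte markers, S100B (0.802), GJA1 (0.556) and GFAP (0.918) were higher at 3 Day. Of the progenitor markers, HES1 (0.766 to 0.970) was higher and SOX2 (-0.425 to -0.260) lower on each day. The sum of 11 striatal projection neuron markers was 88.8 to 136 TPM in the dosed libraries and 137 to 149 TPM in the vehicle. Of that list only BCL11B passed, lower at 2 Day (-0.565), 4 Day (-0.408) and 5 Day (-0.477). The part of these markers in the members' values was not tested.

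Both receptor agonists were accompanied by high CCN1 and CCN2. CCN1 was at 65.0, 61.7 and 68.5 TPM in Water, at 312, 362 and 359 TPM with SKF82958 and at 274 and 278 TPM in Quinpirole replicates 2 and 3. CCN2 was at 69.2, 65.0 and 73.1 TPM in Water, at 437, 518 and 481 TPM with SKF82958 and at 349 and 341 TPM in the same Quinpirole libraries. These dosed libraries were far above all Water libraries, while Quinpirole replicate 1 had 0 reads of either gene. The Water libraries themselves were above the PBS and AA vehicle libraries of the other experiments, which were at most 18.3 TPM for CCN1 and 26.1 TPM for CCN2, and these experiments were not compared by a test.

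With Quinpirole replicate 1 in the fit, edgeR called 0 of 10 members for SKF82958, where it called 0.0124% of genes. CCN1, CCN2, ANKRD1 and NUAK2 had an unadjusted p under 0.05, and DESeq2 called 1 member, NUAK2. In a fit without that library, added after seeing the data, 5 members passed, where 0.624% of genes did. CCN2 was 6.55-fold higher (2.71 ± 0.10, adjusted p = 7.29e-10), CCN1 5.00-fold (2.32 ± 0.09, adjusted p = 9.91e-10) and ANKRD1 6.69-fold (2.74 ± 0.36, adjusted p = 0.000803). NUAK2, at 56.8, 55.3 and 63.3 TPM against 29.2, 30.0 and 30.3 TPM in Water, was 1.85-fold higher (0.89 ± 0.08, adjusted p = 1.5e-05). AMOTL2, at 76.2, 76.1 and 78.0 TPM against 47.3, 49.6 and 48.7 TPM, was 1.49-fold higher (0.58 ± 0.07, adjusted p = 0.000408). None of these 5 genes overlapped with Water. The log2(fold change) of CCN2 was 2.71 in both fits, with a standard error of 0.99 in the one and 0.10 in the other. The mesenchymal marker sum was 264 to 347 TPM with SKF82958 and 219 to 230 TPM in Water, and the astrocyte marker sum 232 to 257 TPM and 185 to 212 TPM, so that neither overlapped. No single marker of either list passed in the fit with all libraries. That fit called only 0.0124% of all genes, so the lack of a call says little about the markers. Their results in the fit without Quinpirole replicate 1 are not given here, and the part of these sums was not tested.

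For Quinpirole, edgeR and DESeq2 called 0 of 10 members with replicate 1 included, edgeR called 0% of genes, and 2 members (ANKRD1 and NUAK2) had an unadjusted p under 0.05. Without it, 3 members passed where 0.184% of genes did. CCN2 was 5.21-fold higher (2.38 ± 0.11, adjusted p = 9.33e-09), CCN1 4.41-fold (2.14 ± 0.10, adjusted p = 9.33e-09) and NUAK2 1.58-fold (0.66 ± 0.09, adjusted p = 0.00196). ANKRD1, at 3.46 and 4.94 TPM against 1.26, 0.82 and 1.058 TPM in Water, did not pass (2.00 ± 0.42, adjusted p = 0.116), and neither did AMOTL2 (0.40 ± 0.08, adjusted p = 0.0736). LATS2, YAP1, WWTR1, AMOT and AMOTL1 had log2(fold change) values between 0.005 and 0.35 with either agonist in the fits without replicate 1, and none passed. The agonists were not tested against each other.

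CCN1 and CCN2 followed each other closely across the experiments. The correlation of their log2(TPM + 1), each library taken relative to the mean of its experiment's control libraries, was r = 0.979 over 53 libraries and 0.971 without Quinpirole replicate 1. Among 19098 genes, CCN2 was the gene most like CCN1 and CCN1 the gene most like CCN2. GADD45B (0.925), ATF3 (0.901), IER3 (0.899) and ZFP36 (0.894), all genes that are quickly induced by stress or growth signals, came next for CCN1, and the same 4 genes for CCN2. Without Quinpirole replicate 1, NEDD9, an adhesion docking protein, took the third place for CCN1 (0.893) and the second for CCN2 (0.904). These libraries share controls, depth and doses, so the correlations describe the set and carry no p. Among the members, without Quinpirole replicate 1, NUAK2 was most like CCN1 after CCN2 (0.836), followed by ANKRD1 (0.714), AMOTL2 (0.674) and WWTR1 (0.636). AMOT, AMOTL1 and YAP1 resembled each other (0.751 to 0.802) more than they resembled CCN1 (0.105 to 0.464), and LATS2 resembled no member above 0.27.

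**Figure D4:**
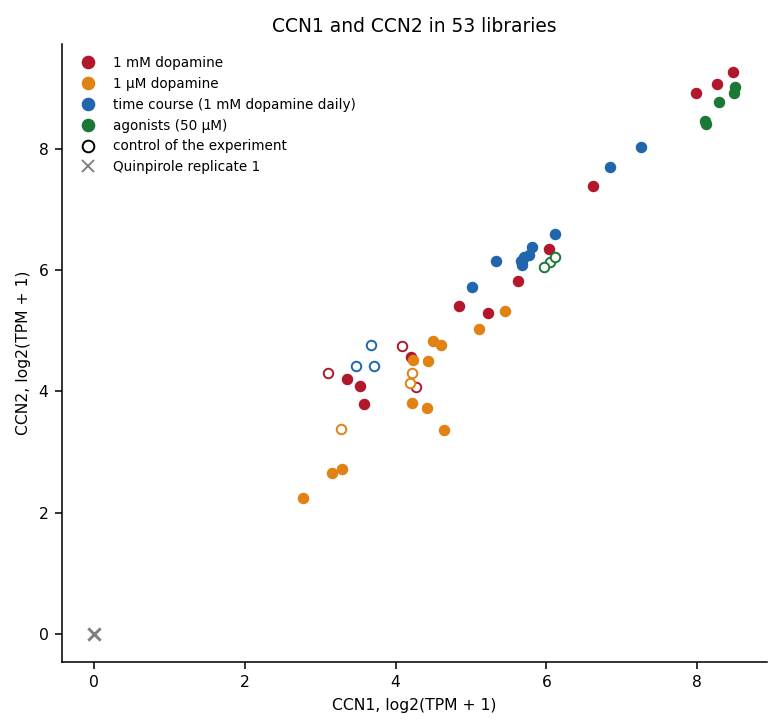
CCN1 (horizontal) and CCN2 (vertical) as log2(TPM + 1) in 53 libraries, coloured by experiment, with control libraries as open points and Quinpirole replicate 1 as a grey cross. Libraries of 1 mM Acute 1 h and of both agonists lie at the upper right, up to 354 TPM for CCN1 and 616 TPM for CCN2 in the 1 mM experiment, and controls at the lower left apart from Water.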

How the data were processed

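The data were 53 RNA-seq libraries of H9 hMSN-like cells. The authors mapped the reads to hg38 with an Ensembl annotation and deposited 1 table per library with counts of exon and intron reads per gene. The deposited TPM is, per the file headers, made by the authors from exon reads and exon length. Strand in counting is not given in the sources used here. The 10 members and the gene lists were chosen with earlier results of these data known, and all 10 entered every comparison. Passing genes named from every other list are among the 3 with the smallest adjusted p in that comparison. Not all of these are named, so a list without a named gene may still hold passing genes. For likeness, genes were taken from the 5 highest correlations among genes of at least 1 TPM on average. CGS21680 was not analysed here, and 5 Day replicate 1 was not used here.

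Exon counts were tested with edgeR 4.0.16 (R 4.3.3): filterByExpr (minimum count 10, minimum total 15), TMM, glmQLFit and glmQLFTest, with all groups of an experiment in 1 fit, 19 comparisons, and Benjamini-Hochberg adjustment over all genes of a comparison. A member passed at an adjusted p under 0.05. Each SE was derived as |log2(fold change)|/sqrt(F). Sequencing was by 2 providers not assigned to libraries, so no batch was modelled, and no pair of libraries was identical. The study calls its replicates independent, and whether they were separate differentiations is not given in the sources used here, so p-values measure the spread between libraries. Alternatives were DESeq2 1.42.0 (size factors, Wald test), no filter, total gene reads, thinning, only the groups compared, a replicate block, a further threshold of a 2-fold difference and 1 TPM or more in the higher group, which the study's methods state for the acute and chronic dopamine data and not for the time course or agonists, and each library left out. The floor given for 0 reads covers counting error only, whereas each SE includes the spread between libraries. Figures used matplotlib 3.10.9.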

Additional observations from a re-analysis of the deposited data

Results flagged for a closer look

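The response to Acute 1 h differed between 1 mM and 1 µM dopamine by the interaction test in 5 of the 10 genes, where 2.01% of all genes tested differed. The log2(fold change) at 1 mM exceeded that at 1 µM by 3.76 for CCN2, 3.42 for CCN1, 1.33 for NUAK2, 0.60 for YAP1 and 0.54 for AMOTL1. The calls for YAP1 and AMOTL1 were lost without 1 µM PBS replicate 2 (edgeR, adjusted p of 0.0873 and 0.0822), and each held in 4 of 12 fits with 1 library left out. CCN1, CCN2 and NUAK2 rose at both doses, by more at 1 mM. YAP1 was higher than PBS at 1 mM (0.37) and AMOTL1 was lower at 1 µM (-0.47). Each dose was a separate experiment with PBS libraries of its own, and dose and experiment cannot be told apart.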

How the results depend on the processing

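Of 55 results in which a member passed, 29 passed in every fit with 1 library left out, and no member's direction turned in any result that passed. Counts of members passing are given here where they changed by over 1.5 times, and the cause was not tested. The share of all genes passing also changes with the setting, and it is given only where stated. Elsewhere these counts do not tell whether the members or all genes moved. With a 2-fold difference and 1 TPM also required, 5 members passed at 1 mM Acute 1 h, 2 at 1 mM Acute 24 h, 1 at 1 mM Chronic 1 h, 5 for 1 mM Chronic 1 h against Acute 1 h, 1 at 1 µM Acute 24 h, and 2, 4 and 2 at 2, 3 and 4 Day. Of all 17804 genes, 730, 659, 146 and 502 passed in these 1 mM comparisons, in that order. At 1 µM Acute 24 h 196 of 16541 genes passed, and at 2, 3 and 4 Day 83, 227 and 85 of 16768. With only the groups compared in the fit, the counts of members were 0 at 1 mM Acute 24 h, 7 at 1 mM Chronic 1 h, 0, 1 and 0 at 1 µM Acute 1 h, Acute 24 h and Chronic 1 h, 5 for SKF82958 and 2 for the dose difference after Acute 1 h. With total gene reads they were 8 at 1 mM Acute 24 h, 1 at 1 mM Chronic 1 h, 2 at 1 µM Acute 1 h, 0 at 1 µM Chronic 1 h and 1 at 5 Day. DESeq2's Wald test gave 5 at 1 mM Chronic 1 h, 3 at 1 µM Chronic 1 h and 1 for SKF82958, and DESeq2's size factors gave 1 for SKF82958 and 3 for the dose difference. Without a filter they were 1 at 1 µM Acute 24 h, 2 for the slope and 3 for the dose difference, and after thinning 1 at 1 µM Acute 24 h, 2 at 1 µM Chronic 1 h and 2 for the dose difference. Without 1 mM Acute 24 h replicate 1 in the fit, 7 passed at 1 mM Chronic 1 h, where 18.4% of genes did. Without Quinpirole replicate 1, 5 passed for SKF82958, where 0.624% of genes did.

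With 1 library left out, the counts ranged from 1 to 5 at 1 mM Acute 24 h, 1 to 2 at 1 mM Chronic 1 h, 1 to 5 at 1 µM Acute 1 h, 1 to 3 at 1 µM Acute 24 h, 0 to 1 at 1 µM Chronic 1 h, 2 to 4 at 2 Day and at 4 Day, 0 to 3 at 5 Day, 0 to 3 for Quinpirole and 3 to 6 for the dose difference after Acute 1 h. The count fell to 1 at 1 mM Acute 24 h without PBS replicate 2 or 3 and to 3 without PBS replicate 1. At 1 mM Chronic 1 h it was 1 without any of the 6 libraries except PBS replicate 1. At 1 µM Acute 1 h it was 1 without PBS replicate 2, 2 without Acute 1 h replicate 3 and 3 without PBS replicate 3. At 1 µM Acute 24 h it was 1 without any library except PBS replicate 2, and at 1 µM Chronic 1 h 0 without any except Chronic 1 h replicate 2. It was 2 at 2 Day without 2 Day or AA vehicle replicate 2, 2 at 4 Day without AA vehicle replicate 1 or 2, and 0 at 5 Day without AA vehicle replicate 1. The dose difference had 3 without any of 1 mM Acute 1 h, 1 mM PBS replicates 1 and 2, 1 µM Acute 1 h replicate 1 or 1 µM PBS replicate 2. At 1 mM Acute 1 h the range was 6 to 7 and at 3 Day 6 to 7.

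On average, libraries with the same replicate number showed no pairing. The correlation of their deviations from the group means averaged 0.00, 0.02, -0.01 and -0.02 in the 4 experiments. Single pairs ranged from -0.30 to 0.45, and both ends lay in the 1 µM experiment. There replicate 2 was the lowest library for AMOTL2, NUAK2 and LATS2 in PBS, Acute 1 h and Chronic 1 h, but not in Acute 24 h. An average cannot tell whether some groups were paired. With the replicate number as a block, the dose difference after Acute 1 h had 3 passing members instead of 5, and no other count moved by over 1.5 times. Depth limits ANKRD1, whose exon reads were at most 67 in a library.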
